A study of Mus musculus with 6 samples.

Results

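The genes described here are the olfactory receptor genes (*Olfr*) and the vomeronasal receptor genes (*Vmn1r* and *Vmn2r*) in RNA sequencing of HL-1 cells after silencing of *Malat1*, a nuclear long noncoding RNA. They were chosen by symbol, as every gene of the deposited table that starts with Olfr or Vmn, whatever its biotype, and there were 84 of them among 21269 genes. The families were picked because they rose together in the same comparison, so their values in it are given as a description, with no p-value, and the counts of receptor genes called support nothing. HL-1 is a mouse atrial cardiomyocyte line, grown from a single tumor lineage in which the atrial natriuretic factor promoter drove a viral large T antigen. The cells were seeded 24 hours before transfection, received 50 nM of a control locked nucleic acid gapmer (LNA Control) or of a gapmer against *Malat1* (LNA Malat1), and were collected after 48 hours. Each group has 3 libraries of total RNA, and no source says that they came from separate cultures, so p-values measure only the spread between these libraries.

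Olfactory receptors are G protein-coupled receptors that detect odorants on sensory neurons of the nose, and each such neuron uses 1 allele of 1 receptor gene while the others stay silent. The vomeronasal receptors detect pheromones and related cues in the vomeronasal organ: the *Vmn1r* family pairs with the G protein subunit Gnai2 and the *Vmn2r* family with Gnao1. The genes lie in large clusters, in sensory neurons and in other tissues mostly packed in heterochromatin, and a few olfactory receptors are also known from tissues outside the nose.

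The 84 genes comprised 46 *Olfr*, 24 *Vmn1r*, and 14 *Vmn2r* genes, of which 70 were protein coding and 14 were pseudogenes. The GENCODE M21 annotation of the mm10 genome holds 1407, 328, and 239 genes with such symbols, 1974 in all, so the table lists 4.26% of them. All 84 have the same coordinates there. The median exonic length was 3978 bases in the listed genes and 2473.5 bases in those not in the table. Most listed genes lie close together: 68 fell into 17 clusters of at least 2 genes less than 1 Mb apart, and 16 stood alone. The largest was a stretch of 342 kb on chromosome 13 (22825875 to 23168154, mm10) with 14 *Vmn1r* genes, followed by 11 *Olfr* genes on chromosome 9.

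Receptor genes of 1 cluster are close relatives, so a 75-base read has to fall on differing bases to be assigned to 1 gene. Among the 6 protein-coding genes of the chromosome 13 cluster that passed the filter on low values, the coding sequences were 60.5% to 89.0% identical in pairs, with a median of 71.9%. The 75-base stretch in which they were most alike had 52 identical positions and is shown to make visible how much of a read separates the genes (GENCODE M21, 5′ to 3′ in the direction of the coding strand). Capitals mark the 23 positions at which the 6 genes are not all the same.
Vmn1r210 (chr13:22827780-22827854, - strand): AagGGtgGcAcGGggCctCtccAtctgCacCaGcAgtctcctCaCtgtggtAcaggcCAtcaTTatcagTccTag
Vmn1r211 (chr13:22852164-22852238, - strand): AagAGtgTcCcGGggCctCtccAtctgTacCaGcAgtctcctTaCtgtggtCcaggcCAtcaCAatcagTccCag
Vmn1r212 (chr13:22883827-22883901, - strand): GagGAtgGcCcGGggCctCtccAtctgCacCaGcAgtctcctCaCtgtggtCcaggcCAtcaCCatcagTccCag
Vmn1r213 (chr13:23011767-23011841, + strand): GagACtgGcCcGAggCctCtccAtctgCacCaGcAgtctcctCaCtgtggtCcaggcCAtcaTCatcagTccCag
Vmn1r214 (chr13:23034727-23034801, + strand): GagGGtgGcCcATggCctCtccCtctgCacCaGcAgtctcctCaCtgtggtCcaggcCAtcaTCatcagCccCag
Vmn1r218 (chr13:23136742-23136816, + strand): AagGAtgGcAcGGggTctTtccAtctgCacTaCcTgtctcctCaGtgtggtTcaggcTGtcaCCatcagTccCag
In this stretch the closest pair, *Vmn1r212* and *Vmn1r213*, differed at 4 bases, and the most distant, *Vmn1r214* and *Vmn1r218*, at 17. It was chosen over all 6 genes at once, so a pair can be more alike elsewhere. Of its 75-base transcript windows, *Vmn1r212* shared 5.96% with another gene and *Vmn1r214* 3.33%. The share was 1.24% in *Vmn1r218*, 1.19% in *Vmn1r213*, 0.78% in *Vmn1r211*, and 0.60% in *Vmn1r210*.

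In the 6 tested *Olfr* genes of chromosome 9, identity ranged from 64.0% to 79.0%, and the most alike stretch had 42 identical positions. It is shown for the same reason, again with capitals at the positions, here 33, that are not the same in all 6 genes.
Olfr877 (chr9:37854962-37855036, + strand): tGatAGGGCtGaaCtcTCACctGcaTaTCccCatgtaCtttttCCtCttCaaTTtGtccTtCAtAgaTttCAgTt
Olfr145 (chr9:37897545-37897619, + strand): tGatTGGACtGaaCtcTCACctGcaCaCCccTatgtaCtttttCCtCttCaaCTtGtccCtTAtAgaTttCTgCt
Olfr878 (chr9:37918801-37918875, + strand): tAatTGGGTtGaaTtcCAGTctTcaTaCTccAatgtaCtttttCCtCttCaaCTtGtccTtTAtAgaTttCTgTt
Olfr893 (chr9:38209203-38209277, + strand): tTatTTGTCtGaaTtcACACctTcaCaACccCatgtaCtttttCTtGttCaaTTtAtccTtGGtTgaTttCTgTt
Olfr894 (chr9:38218976-38219050, + strand): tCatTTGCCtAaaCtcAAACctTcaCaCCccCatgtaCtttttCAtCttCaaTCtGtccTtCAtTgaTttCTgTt
Olfr920 (chr9:38755832-38755906, + strand): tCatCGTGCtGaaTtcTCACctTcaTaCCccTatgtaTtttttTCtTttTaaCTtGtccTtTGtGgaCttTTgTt
The fewest differences in this stretch were 10, between *Olfr145* and *Olfr877*. Over whole transcripts, 22 of the 84 genes shared no 75-base window with a transcript of another gene, the median share was 2.12%, and 14 genes shared over 10% of their windows.

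The values are normalized read counts rounded to whole numbers, which summed to 4758777 to 4921406 per library. The depth recovered from the rounding steps was 4512255 to 5593297 reads, highest in LNA Control replicate 3. LNA Malat1 replicates 1 and 3 differed by no more than sampling noise (chi-square of 0.949 per gene over 14522 genes with at least 20 reads), although not in the 1754 genes with at least 1600 reads (1.11 per gene, chi-square p = 0.00055). LNA Malat1 replicates 1 and 2 were also near sampling noise (1.01 per gene, chi-square p = 0.24), though not at 1600 reads or more (1.66 per gene). Replicates 2 and 3 were at 1.16 per gene, and the LNA Control pairs at 1.77 to 4.18. The LNA Malat1 libraries thus differed little from each other. Replicates 1 and 3 together enter every LNA Malat1 mean ± SD as 1 sample (n = 2). The limma fits took all 3 LNA Malat1 libraries as separate samples unless stated. *Malat1* itself was counted 5051, 5197, and 4369 times in the LNA Control libraries and 2833, 2792, and 2732 times in those of LNA Malat1 (normalized counts), so 57.2% of the control level remained (adjusted p = 7.5e-06 by limma, log2 fold change -0.80 ± 0.07 SE). With LNA Malat1 replicates 1 and 3 as 1 sample, its limma adjusted p was 0.00057.

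Receptor transcripts were rare in both groups and more frequent in LNA Malat1. The counts of all 84 genes summed to 409, 591, and 886 in LNA Control replicates 1 to 3 and to 1230, 1105, and 1335 in LNA Malat1, which is 0.00835% to 0.0183% and 0.0232% to 0.0281% of the library. Every LNA Malat1 library lay above every LNA Control library, and within LNA Control the spread was wide, with replicate 3 at over 2 times replicate 1. LNA Control averaged 628.7 ± 240.7 (SD, n = 3) and LNA Malat1 averaged 1193.8 ± 125.5 (SD, n = 2), a ratio of 1.90, and 1.35 over LNA Control replicate 3 alone. In bulk RNA, more cells with a transcript and more transcript per cell cannot be told apart. The ratio was 2.02 for *Olfr*, 1.84 for *Vmn1r*, and 1.75 for *Vmn2r*, and 1.93 for protein-coding genes against 1.5 for pseudogenes. The number of receptor genes with at least 1 count was 53, 57, and 69 in the LNA Control libraries and 74, 76, and 80 in those of LNA Malat1. Genes of other kinds shifted too. Of all 5619 genes with a mean under 5, the LNA Control libraries had 65.6%, 64.8%, and 77.8% with at least 1 count. The LNA Malat1 libraries had 84.6%, 83.6%, and 86.5%. For the 54 receptor genes under that mean, the shares were 46.3%, 51.9%, and 74.1% against 81.5%, 85.2%, and 92.6%. Whether receptor genes differ in this from other genes of their level was not tested.

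**Figure D1:**
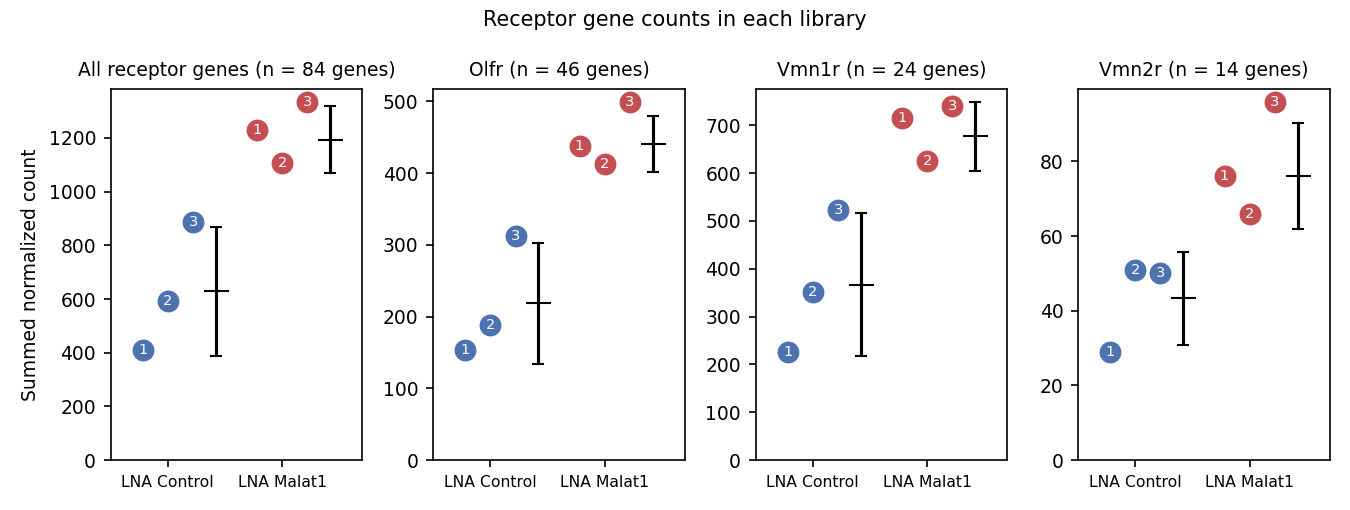
Summed normalized count of all receptor genes and of each family (vertical axes, each from 0) in the 3 libraries of each group; numbers in the points are replicates, and bars are mean ± SD with LNA Malat1 replicates 1 and 3 counted as 1 sample. The 3 LNA Malat1 libraries lie between 1105 and 1335 for all receptor genes, above the 409 to 886 of LNA Control.

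Rare transcripts of other kinds were also more frequent in LNA Malat1, and their part in the receptor values was not tested. The 5619 genes of the table with a mean under 5 summed to 8118, 7873, and 11216 in the LNA Control libraries and to 14952, 13951, and 15092 in those of LNA Malat1, a ratio of 1.6, and 1.29 over LNA Control replicate 3. Annotated antisense genes summed to 14675, 13750, and 15864 against 19735, 18926, and 20156, without overlap. In 2 other classes the groups overlapped: genes to be experimentally checked (biotype TEC) summed to 26922, 30758, and 39618 against 38315, 37939, and 41711, and sense intronic genes to 4024, 4576, and 6024 against 5857, 6075, and 6497. Genes with a mean of at least 50 had a ratio of 0.97.

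A total of 30 receptor genes passed the filter of a mean of at least 5 normalized counts. Of these, 13 were called higher in LNA Malat1 (adjusted p no higher than 0.05 by limma and at least 1.5-fold) and 0 were called lower, where 8.00% of all 15650 genes tested were called higher and 2.92% lower. The receptor genes were picked for a rise in this very comparison, so nothing is read from that difference. The filter mean was also taken over all 6 libraries, so a gene could pass through its LNA Malat1 values alone. This favors rises among the genes tested. Of the called genes, *Vmn1r218*, *Olfr1191-ps1*, *Olfr878*, *Olfr690*, *Vmn1r214*, and *Olfr894* had LNA Control means under 5 (0, 2.0, 2.7, 2.7, 3.7, and 4.7). The log2 fold change was positive in 29 of the 30, with a median of 1.04 against 0.02 over all genes tested. In 13 of the 30, every LNA Malat1 library lay above every LNA Control library, as in 20.5% of all genes. With LNA Malat1 replicates 1 and 3 as 1 sample, 6 of 27 were called higher, where 5.13% of all genes were: *Olfr145*, *Olfr267*, *Olfr690*, *Olfr894*, *Olfr1191-ps1*, *Vmn1r211*, and *Vmn1r214* were no longer called, of which *Olfr1191-ps1* fell under the filter. Leaving out LNA Malat1 replicate 1 or replicate 3 also gave 6.

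The share called differed with the level. Among the 5160 genes with a mean from 5 to below 50, 18.1% were called higher, and their median log2 fold change was 0.31. In that range 10 of 26 receptor genes were called higher, with a median of 1.10. By family, 8 of 16 *Olfr*, 5 of 9 *Vmn1r*, and 0 of 5 *Vmn2r* genes were called higher. None of the 4 pseudogenes tested was called, and their median log2 fold change was 0.55 against 1.10 for the 26 protein-coding genes; whether pseudogenes differ from coding genes was not tested.

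**Figure D2:**
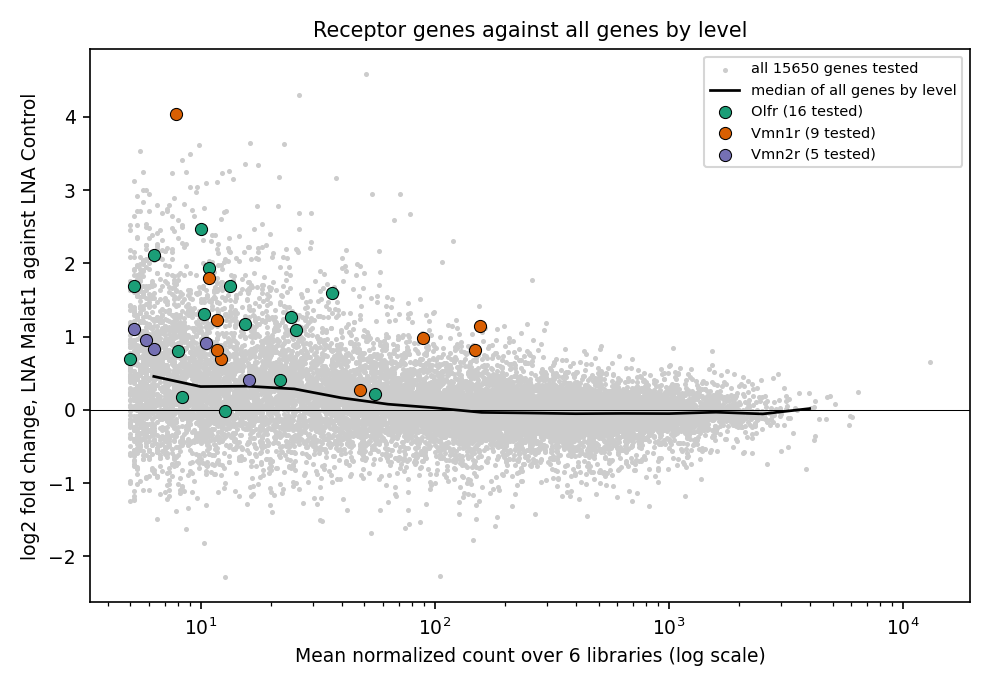
log2 fold change (LNA Malat1 against LNA Control, on the log2(normalized count + 1) scale) against the mean normalized count over the 6 libraries (log axis) for the 30 tested receptor genes, colored by family, over all 15650 genes tested; the line is the median of all genes by level. Of the receptor genes, 29 lie above 0, and the line itself lies above 0 at low counts.

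The cluster on chromosome 13 held more receptor counts than any other, 53.8% of them in LNA Control and 52.3% in LNA Malat1. Its 14 genes summed to 208, 317, and 490 in the LNA Control libraries and to 654, 575, and 690 in those of LNA Malat1. All 14 had a higher mean log2 value in LNA Malat1, 7 passed the filter, and 5 of those were called higher. The 5 were *Vmn1r210*, *Vmn1r211*, *Vmn1r213*, *Vmn1r214*, and *Vmn1r218*, all annotated as protein coding. Over all genes tested, 8.00% were called higher, and the receptor genes were picked for their rise.

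The first genes of the cluster were, per kilobase of exon, the highest of the receptor genes already in LNA Control. *Vmn1r213* had 61, 98, and 142 normalized counts in the LNA Control libraries and 216, 179, and 240 in those of LNA Malat1. The groups did not overlap, and the log2 fold change was 1.14. *Vmn1r211* had 63, 99, and 179 in LNA Control against 190, 169, and 191, so that LNA Control replicate 3 reached into the range of LNA Malat1 (log2 fold change 0.81). *Vmn1r210* had 41, 60, and 81 against 124, 118, and 109, again without overlap (log2 fold change 0.99). Between them, *Vmn1r212* differed little: 33, 43, and 55 in LNA Control overlapped 53, 46, and 57 in LNA Malat1 (log2 fold change 0.27). Per kilobase of exon, *Vmn1r212* was the highest of these in LNA Control at 37.5 ± 9.5 normalized counts (SD, n = 3), followed by *Vmn1r211* at 20.8 ± 10.9, *Vmn1r210* at 17.3 ± 5.7, and *Vmn1r213* at 16.8 ± 6.8, and the last 3 do not differ beyond their spread. In LNA Malat1 the 4 genes lay at 32.9 to 43.4 per kilobase.

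The last genes of the cluster were near 0 in LNA Control. *Vmn1r218* had a listed value of 0 in every LNA Control library and of 17, 12, and 18 in LNA Malat1, so no fold is given. It is also the least similar of the 6 sequences above, with an identity of 60.5% to 62.2% to the others. Beside it, *Vmn1r219* stayed under the filter, with 0, 0, and 1 in the LNA Control libraries and 10, 13, and 5 in those of LNA Malat1; it is named after its values were seen. *Vmn1r214*, the closest to *Vmn1r213* among the 6 sequences at 89.0% identity, had 3, 4, and 4 in the LNA Control libraries. It had 15, 7, and 32 in those of LNA Malat1 (log2 fold change 1.80). The LNA Malat1 libraries of this gene were all higher but far apart.

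The genes around the chromosome 13 cluster give the comparison with the receptor genes' surroundings. Within it the table holds a single gene of another kind, the snoRNA *Gm23774*, at 2, 3, and 3 in the LNA Control libraries and 8, 4, and 1 in those of LNA Malat1. The nearest genes outside are *Prss16*, a thymus protease gene 816 kb to the left, and *Zfp322a*, a zinc finger gene 185 kb to the right, and neither was called. *Zfp322a* differed by 0.11 ± 0.08 SE on the log2 scale (adjusted p = 0.33 by limma). *Btn1a1*, the butyrophilin gene of milk fat globules 289 kb to the right, was called higher: it had 9, 7, and 9 in the LNA Control libraries and 27, 39, and 40 in those of LNA Malat1 (adjusted p = 0.00013 by limma, log2 fold change 1.95 ± 0.26 SE). The 3 genes between *Zfp322a* and *Btn1a1* were not called.

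The 11 *Olfr* genes of the chromosome 9 cluster summed to 45, 37, and 92 in the LNA Control libraries and to 168, 164, and 187 in those of LNA Malat1. All 11 had a higher mean log2 value in LNA Malat1, 6 passed the filter, and 5 of those were called higher. Over all genes tested, 8.00% were called higher. The 11 genes held 9.23% of receptor counts in LNA Control and 14.1% in LNA Malat1. *Olfr893* was the highest, with 14, 13, and 28 in the LNA Control libraries and 49, 60, and 54 in those of LNA Malat1 (log2 fold change 1.59). The neighboring *Olfr894* had 3, 1, and 10 against 18, 10, and 23, where the groups met at 10 (log2 fold change 1.94). The coding sequences of these 2 genes were 79.0% identical at aligned bases, the highest value among the 6 tested genes of this cluster.

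*Olfr877*, *Olfr145*, and *Olfr878* follow each other at the other end of the chromosome 9 cluster, and none of them had overlapping groups. *Olfr877* had 17, 13, and 18 in the LNA Control libraries and 32, 39, and 34 in those of LNA Malat1 (log2 fold change 1.09). *Olfr145* had 4, 3, and 12 against 26, 13, and 22 (log2 fold change 1.69). *Olfr878* had 2, 1, and 5 against 16, 18, and 18, which gave a log2 fold change of 2.47. *Olfr920*, at the far end, had 3, 3, and 13 against 15, 11, and 17 (log2 fold change 1.32); LNA Control replicate 3 overlapped LNA Malat1, and the gene was not called.

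**Figure D3:**
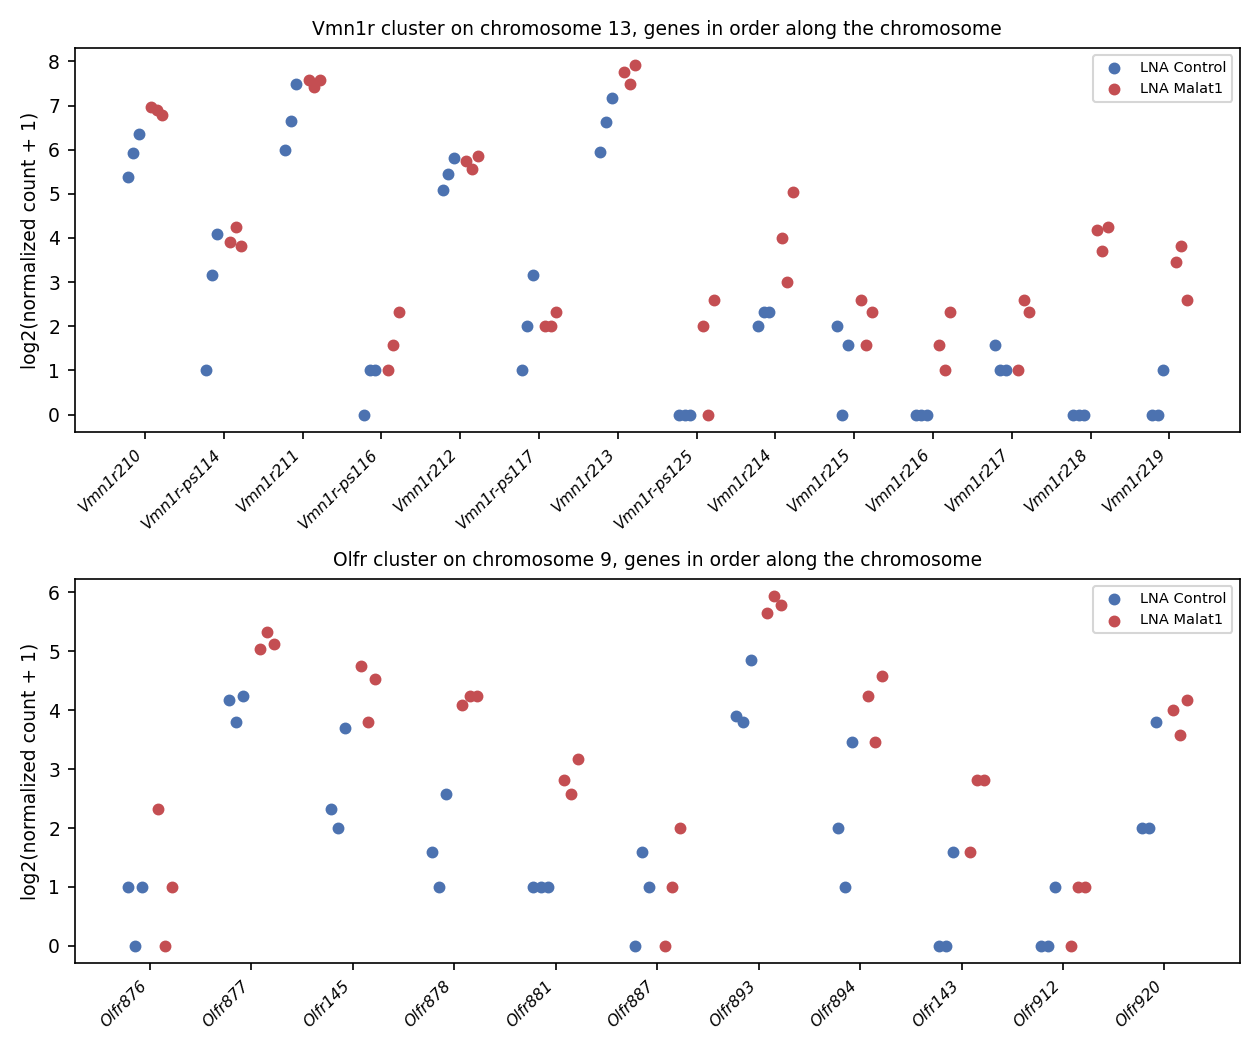
log2(normalized count + 1) of each gene of the chromosome 13 cluster (upper panel) and of the chromosome 9 cluster (lower panel) in order along the chromosome, with each point a library. In the upper panel *Vmn1r218* is at 0 in all 3 LNA Control libraries and the groups of *Vmn1r211* and *Vmn1r212*, among others, overlap; in the lower panel the groups of 5 genes, *Olfr877*, *Olfr145*, *Olfr878*, *Olfr881*, and *Olfr893*, are apart.

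Outside these clusters the genes called higher lay on different chromosomes, but higher means were not confined to them. The mean log2 value was higher in LNA Malat1 in 5 of the 5 genes of the *Olfr1191-ps1* cluster. The same held for 3 of the 3 genes of the chromosome 6 cluster of *Vmn1r43*, where 0 were called. Of all 84 receptor genes, 77 had a higher mean. *Olfr267* on chromosome 4 had 9, 10, and 26 in the LNA Control libraries and 36, 29, and 36 in those of LNA Malat1 (log2 fold change 1.26). *Olfr690* on chromosome 7 had 0, 7, and 1 against 11, 11, and 8 (log2 fold change 2.11). *Olfr1191-ps1* on chromosome 2, annotated as protein coding despite its name, had 1, 2, and 3 against 8, 9, and 8 (log2 fold change 1.69). In these 3 genes the groups did not overlap, and all 3 were called higher. The nearby *Olfr1189* had 3, 8, and 21 against 16, 19, and 26 (log2 fold change 1.18), with LNA Control replicate 3 inside the range of LNA Malat1, and was not called. Without the chromosome 13 cluster, 8 of 23 tested receptor genes were called higher, and the ratio of summed counts was 1.96. Over all genes tested, 8.00% were called higher.

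Several receptor genes showed little difference. *Olfr1033* on chromosome 2, the highest *Olfr* gene, had 37, 59, and 58 in the LNA Control libraries and 51, 54, and 74 in those of LNA Malat1 (log2 fold change 0.22), and *Olfr1029* of the same cluster had 16, 15, and 25 against 18, 29, and 28 (log2 fold change 0.41). The pseudogene *Vmn2r-ps87* had 8, 20, and 14 against 14, 18, and 22 (log2 fold change 0.40). The pseudogene *Olfr1372-ps1* was the single tested receptor gene with a negative log2 fold change, -0.02, at 9, 15, and 14 against 18, 10, and 10. *Olfr56* had 5, 9, and 9 against 11, 11, and 5 (log2 fold change 0.18). It spans interferon-inducible genes, among them *Ifi47* on the same strand and *Tgtp2* on the opposite strand, and shares 111 exonic bases with *Ifi47*. In each of these 5 genes the groups overlapped.

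Of receptors known from tissues outside the nose, *Olfr1393* and *Olfr691* were in the table, both under the filter. *Olfr1393*, described in the kidney, had 4, 1, and 4 in the LNA Control libraries and 8, 5, and 7 in those of LNA Malat1. *Olfr691*, a receptor for fatty acids, had 0, 0, and 3 against 3, 4, and 6, so that a control library reached the lowest LNA Malat1 library. *Olfr78*, *Olfr558*, *Olfr544*, and *Olfr16* were not analysed here.

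The other 54 receptor genes did not pass the filter, with at most 8 normalized counts in an LNA Control library and at most 13 in an LNA Malat1 library. Of these, 48 had a higher and 5 a lower mean log2 value in LNA Malat1, and *Olfr1441* was at 0 in all libraries. In 14 of the 54 every LNA Malat1 library lay above every LNA Control library, and in 0 it was the reverse, where 15.5% and 0.961% of all 5619 genes under the filter were so placed. Nothing is read from the difference, since the families were picked for their rise. A further 11 genes besides *Olfr1441* were listed at 0 in all LNA Control libraries, and they reached at most 5 in LNA Malat1. Together the 54 genes had 64.0 ± 32.2 normalized counts in LNA Control (SD, n = 3) and 165.0 ± 28.3 in LNA Malat1 (SD, n = 2).

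The *Vmn2r* genes, whose receptors carry a large extracellular domain, were all low, and none of the 14 exceeded 22 normalized counts in any library. Of the 5 that passed the filter, *Vmn2r6* was the one whose groups did not overlap, with 3, 3, and 5 in the LNA Control libraries and 6, 10, and 8 in those of LNA Malat1.

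The genes next to the receptors were looked up as their surroundings. For the 30 tested receptor genes, the nearest gene of another kind was one of 17 genes, at a median distance of 139530 bases. Of these, 12 passed the filter; 1 was called higher and 0 were called lower, where 8.00% and 2.92% of all genes were, and the median log2 fold change was 0.00. By limma's adjusted p of 0.05 alone, with no fold minimum, *Kcnab1* and *Vwa5a* were higher and *Ecpas*, *Ppp2ca*, and *Nt5c3* lower, where 14.3% of all genes were higher and 14.0% lower. The called gene was *Kcnab1*, a potassium channel subunit 383366 bases from *Vmn2r6* (adjusted p = 6.5e-06 by limma, log2 fold change 1.99). *Nt5c3*, a nucleotidase gene on the opposite strand 83 bases from *Vmn1r4*, was at -0.27 on the log2 scale (adjusted p = 0.0067 by limma), whereas *Vmn1r4* had 4, 13, and 9 in the LNA Control libraries and 16, 15, and 13 in those of LNA Malat1. In all, 15 of the 84 genes overlap another annotated gene, 10 of them on the opposite strand. Whether the counting used strand is not given in the sources used here, so such reads may not belong to the receptor gene. Without the 15 genes, 13 of 24 tested receptor genes were called higher.

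Genes of the proteins that carry the receptor signal moved in both directions. Olfactory receptors act through the G protein Gnal, adenylyl cyclase Adcy3, and a cyclic nucleotide-gated channel of Cnga2, Cnga4, and Cngb1. Of 33 listed signalling genes, 22 were in the table and 20 were tested, with a median log2 fold change of -0.12. Of the 20, 2 were called higher and 4 lower, where 8.00% of all genes tested were called higher and 2.92% lower. The 2 were *Cngb1*, which had 2, 0, and 2 in the LNA Control libraries and 11, 15, and 13 in those of LNA Malat1 (adjusted p = 0.0015 by limma, log2 fold change 2.74 ± 0.50 SE), and *Gnal*, which had 5, 7, and 9 against 18, 15, and 18 (adjusted p = 0.012 by limma, log2 fold change 1.2 ± 0.31 SE). The groups of both genes were apart. *Gnal* was no longer called without LNA Malat1 replicate 1 (limma adjusted p = 0.058), without LNA Malat1 replicate 3 (0.055), or with both as 1 sample (0.051). *Adcy3* had 482, 445, and 430 in the LNA Control libraries and 461, 434, and 421 in those of LNA Malat1 (adjusted p = 0.63 by limma, log2 fold change -0.04).

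The 4 signalling genes called lower act at several steps. *Gnao1*, the G protein subunit of *Vmn2r* receptors, had 58, 48, and 64 in the LNA Control libraries and 28, 27, and 37 in those of LNA Malat1 (adjusted p = 0.0035 by limma, log2 fold change -0.87 ± 0.18 SE). *Slc12a2*, the cotransporter that loads olfactory neurons with chloride, fell from 891, 856, and 773 to 477, 502, and 504 (adjusted p = 2.7e-06 by limma, log2 fold change -0.76 ± 0.06 SE). *Cnp*, a phosphodiesterase gene, was at -0.65 on the log2 scale (adjusted p = 0.0025 by limma) and *Slc24a4*, a calcium extruder, at -0.69 (adjusted p = 0.048 by limma). *Slc24a4* was called only narrowly: leaving out any 1 library except LNA Malat1 replicate 3 gave a limma adjusted p of 0.052 to 0.16. *Cnp* fell below the 1.5-fold minimum without LNA Control replicate 3 (log2 fold change -0.57) or LNA Malat1 replicate 2 (-0.55). *Gnai2*, the partner of *Vmn1r* receptors, had 934, 910, and 870 against 928, 910, and 902 (adjusted p = 0.86 by limma, log2 fold change 0.01).

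In olfactory neurons, receptor choice depends on transcription factors such as Lhx2 and Ebf family members, and on heterochromatin proteins that keep receptor genes silent. Of 23 such genes, 20 were tested, 0 were called higher, and 1 was called lower, with a median log2 fold change of -0.16. Over all genes tested, 8.00% were called higher and 2.92% lower. The called gene was *Nfib*, a nuclear factor I gene, at 3315, 3261, and 3258 in the LNA Control libraries and 1919, 1957, and 1995 in those of LNA Malat1 (adjusted p = 1.1e-06 by limma, log2 fold change -0.74 ± 0.05 SE). When limma's adjusted p of 0.05 alone was asked for, with no fold minimum, 9 of the 20 genes were lower and 0 higher, where 14.0% of all genes were lower and 14.3% higher. The list was not compared with other genes of its level, and a link to the receptor values was not tested.

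These 9 included several chromatin genes, but other chromatin genes of the list did not pass. Those were *Suv39h1* (log2 fold change -0.0004, limma adjusted p = 0.998), *Ehmt1* (-0.10, 0.17), *Bptf* (0.05, 0.50), and *Ctcf* (-0.005, 0.95). The values of genes among the 9 follow. *Kdm1a*, the histone demethylase needed for receptor choice, had 448, 440, and 433 in the LNA Control libraries and 328, 356, and 338 in those of LNA Malat1 (adjusted p = 0.00039 by limma, log2 fold change -0.37 ± 0.06 SE). *Setdb1*, a histone methyltransferase of heterochromatin, had 837, 841, and 775 against 683, 624, and 628 (adjusted p = 0.00081 by limma, log2 fold change -0.34 ± 0.06 SE). *Lbr*, the lamin B receptor that tethers heterochromatin to the nuclear envelope, was at -0.33 on the log2 scale (adjusted p = 0.00067 by limma), and *Ehmt2* and *Cbx5*, a methyltransferase and a binder of heterochromatin, were at -0.20 each (adjusted p = 0.013 and 0.023 by limma). *Ehmt2* missed the threshold without LNA Control replicate 2, LNA Malat1 replicate 2, or LNA Malat1 replicate 3 (limma adjusted p = 0.057, 0.072, and 0.053). *Cbx5* missed it without LNA Control replicate 2 or any 1 LNA Malat1 library (limma adjusted p of 0.073 to 0.11), and when replicates 1 and 3 of LNA Malat1 were merged (0.11). *Lhx2* had 167, 136, and 147 against 155, 174, and 179 (adjusted p = 0.18 by limma, log2 fold change 0.18).

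**Figure D4:**
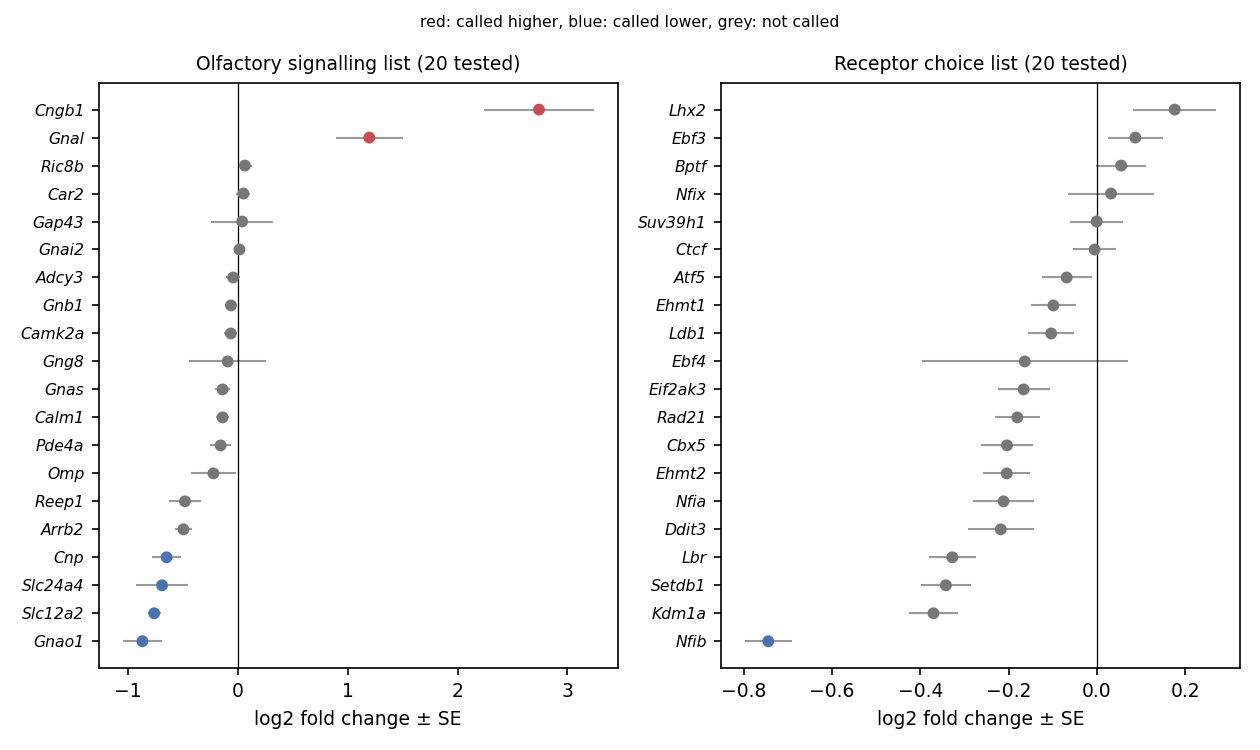
log2 fold change (LNA Malat1 against LNA Control) ± SE of the 20 tested genes of the olfactory signalling list (left) and of the receptor choice list (right), with called genes in color. *Cngb1* and *Gnal* are called higher and *Gnao1*, *Slc12a2*, *Slc24a4*, *Cnp*, and *Nfib* lower.

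Most markers of the labelled cell type were in the table, but some of them at low counts. Of 14 atrial cardiomyocyte markers 12 were in the table, 10 were tested, and 0 were called. *Ryr2* lay at 2237 to 2706 and *Tnnt2* at 647 to 746 in the 6 libraries, but *Myl4* at 30 to 49 and *Myl7* at 18 to 32. *Myh6*, the atrial myosin heavy chain gene, lay at 0 to 7 and *Gja5* at 0 to 4. *Nppa* and *Sln* were not analysed here. Markers of olfactory sensory neurons did not move together: *Omp*, the olfactory marker protein gene, had 31, 26, and 27 in the LNA Control libraries and 20, 28, and 24 in those of LNA Malat1 (adjusted p = 0.45 by limma, log2 fold change -0.22), and *Gng13* stayed at or under 2 and *Stoml3* at or under 4 in every library. The 6 such markers in the table summed to 527, 495, and 477 against 513, 489, and 475, and *Gnal* was the 1 called. Most of that sum was *Adcy3* (482, 445, and 430 against 461, 434, and 421), so it says little about the other markers. Of the vomeronasal neuron markers, *Calr4* was called higher (adjusted p = 0.013 by limma, log2 fold change 1.14) and *Gnao1* lower. Of 4 macrophage markers listed, 2 were in the table. These 2, *Csf1r* (adjusted p = 0.013 by limma, log2 fold change 1.19) and *Cd68* (adjusted p = 0.023 by limma, log2 fold change 0.79), were called higher. They summed to between 32 and 36 per LNA Control library and between 54 and 81 per LNA Malat1 library. *Calr4* was no longer called without LNA Control replicate 2, LNA Malat1 replicate 1, or LNA Malat1 replicate 2 (limma adjusted p = 0.061, 0.068, and 0.082), nor was *Csf1r* without LNA Malat1 replicate 1 or 2 (0.082 and 0.067). *Cd68* was lost without LNA Control replicate 2 or any 1 LNA Malat1 library (limma adjusted p of 0.054 to 0.10). The endothelial marker *Pecam1* and the 3 fibroblast markers tested were not called. Of the fibroblast markers, *Col1a1* lay at 1794 to 2486, *Col3a1* at 1952 to 2650, and *Pdgfra* at 30 to 48 in the 6 libraries. *Col3a1* was lower in LNA Malat1 by less than the fold minimum (adjusted p = 0.0014 by limma, log2 fold change -0.33). The part of these in the receptor values was not tested.

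Finally, the start regions were searched for the letters of factors of receptor choice. RefSeq (GRCm38.p6) gives a window of 250 bases before to 50 bases after the annotated start for 56 of the 84 genes, but that start lay a median of 2636.5 bases from the one in the table, and within 100 bases for 8 genes. TAATTA, the homeodomain core, was on either strand in 5 of the 56 windows (8.93%), against 5.31% of all 27025 windows and 2.78% of those of the genes in the table. CCCNNGGG, the core bound by Ebf factors, was in 3 of the 56 (5.36%), against 13.4% of all windows and 17.4% of those of the genes in the table. A match describes the letters of these windows only.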

How the data were processed

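Total RNA of HL-1 cells was sequenced with single-end reads of 75 bases. Per the labels and the study's methods, the authors trimmed reads with Trimmomatic 0.39, aligned them to mm10 with STAR 2.7.7a, counted reads in exons with featureCounts 1.6.5, excluding reads in several genes or regions, and normalized with DESeq2 1.30.0; the deposited score per gene and library is that normalized count, rounded to a whole number.

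The members, lists, and tests were chosen with earlier results of these data known. limma 3.58.1 (R 4.3.3, lmFit and eBayes with trend) was run on log2(normalized count + 1) of all genes with a mean of at least 5 (two-sided, Benjamini-Hochberg adjustment); the added 1 understates the change of low genes. Calls needed an adjusted p no higher than 0.05 and a 1.5-fold difference. Named were *Malat1*, the 12 tested receptor genes with the highest mean, the 10 with the largest and the 5 with the smallest log2 fold change, those at 0 in LNA Control and at 5 or more in each LNA Malat1 library, and 6 receptors known from outside the nose; called genes of the fixed lists were named too. The main design had no replicate block. Depth was recovered as the scaling factor that makes a library's values whole reads before rounding; for LNA Malat1 replicate 2 no factor was found and 1 was used. Coding sequences (GENCODE M21) were aligned with MAFFT 7.526. The alternatives were a replicate block, other pseudocounts, scalings, filters and fold minimums, each library left out, LNA Malat1 replicates 1 and 3 as 1 sample, and limma's voom on recovered reads. The limma script was tested on simulated data.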

Additional observations from a re-analysis of the deposited data

How the results depend on the processing

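No receptor gene was called lower under any alternative run, and the median log2 fold change of the tested receptor genes stayed between 0.77 and 1.22. The number called higher was 6 to 18 with each library left out (18 without LNA Control replicate 3), 6 with LNA Malat1 replicates 1 and 3 as 1 sample, and 8 without the chromosome 13 cluster, which was chosen after seeing the data, as were leaving out overlapping genes, leaving out genes with over 10% shared windows, and counting LNA Malat1 replicates 1 and 3 as 2 samples. The other settings gave 10 to 18, the latter with no filter on low values. The number of receptor genes without overlap between the groups was 13, but 8 with quantile normalization, 27 with no filter, and 13 to 25 with each library left out. Over all genes, 20.5% of those tested and 15.5% of those under the filter were so placed. This share was not computed for the other settings, so nothing is read from these counts. The ratio of summed counts ranged from 1.62 to 2.39 with each library left out and was 1.61 with quantile normalization. Over all genes, 753 were called higher and 694 lower with quantile normalization, 2231 and 2195 with no fold minimum, 742 and 99 with a fold minimum of 2, 769 to 1621 and 405 to 476 with each library left out, and 796 higher with LNA Malat1 replicates 1 and 3 as 1 sample. With a fold minimum of 2, 2 signalling genes were called instead of 6 (4 to 5 with each library left out), and *Malat1* (log2 fold change -0.80) was no longer called; otherwise its log2 fold change was -0.88 to -0.75 with each library left out. The causes were not tested. Of the 21 named receptor genes tested, 2 changed sign under an alternative, neither of them called. Of the 16 called genes of other lists that are named, 2 (*Btn1a1* and *Kcnab1*) were called under every alternative run, *Cngb1* was called under all but 1 and *Defb42* under all but 6, in which they fell under the filter, 9 were lost with at least 1 library left out, and *Slc24a4* was lost under 13 alternatives. The libraries share replicate numbers only: same-numbered libraries correlated at 0.09, 0.18, and 0.08 in their deviations from the group means, and with the replicate block 15 receptor genes were called higher, 13 of them those called without it, and 1297 genes were called higher and 442 lower.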

Other observations

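Other gene families that are usually confined to single tissues were also looked up by symbol prefix, among them taste receptors, defensins, prolactin relatives, and major urinary proteins. The table holds 23 such genes, which summed to 148, 148, and 162 normalized counts in the LNA Control libraries and 231, 215, and 223 in those of LNA Malat1. Of these, 9 were tested, 4 were called higher, and 0 were called lower, with a median log2 fold change of 0.76. Of all genes tested, 8.00% were called higher and 2.92% lower. Among all genes with a mean from 5 to below 50, 18.1% were called higher, with a median log2 fold change of 0.31. Whether these families differ from other genes of their level was not tested. *Tas1r1*, a subunit of the umami taste receptor, had 5, 3, and 8 in the LNA Control libraries and 14, 15, and 14 in those of LNA Malat1 (adjusted p = 0.014 by limma, log2 fold change 1.35 ± 0.36 SE). *Defb42*, a defensin gene, had 1, 1, and 3 against 9, 7, and 10 (adjusted p = 0.0077 by limma, log2 fold change 1.93 ± 0.46 SE). *Pate2* (adjusted p = 0.047 by limma, log2 fold change 1.01) and the pseudogene *Mup-ps23* (adjusted p = 0.035 by limma, log2 fold change 0.76) were the other 2. *Tas1r1* and *Pate2* were no longer called when any 1 LNA Malat1 library was left out (limma adjusted p of 0.056 to 0.060 and of 0.091 to 0.19), nor was *Pate2* without LNA Control replicate 2 (0.14), and leaving out any 1 library except LNA Control replicate 3 ended the call of *Mup-ps23* (0.064 to 0.11). *Rhox5*, a homeobox gene, had 14, 17, and 13 against 4, 10, and 14 and was the 1 tested gene of these families with a negative log2 fold change (-0.73, limma adjusted p = 0.18).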
